A study of Mus musculus with 98 samples.

Results

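The 10 genes described here are textbook markers of the stroma and the vessels of the spleen: Col1a1, Col1a2, Col3a1, Sparc, Acta2, Pecam1, Cdh5, Kdr, Tek and Madcam1. Their members were all probe sets that the platform's gene table gives to these symbols, which came to 16 of the 22626 probe sets kept on the array, for 10 of the 12393 genes to which it gives at least 1 probe set alone. Of the genes, 6 had 2 probe sets each (Col1a1, Col1a2, Col3a1, Sparc, Acta2 and Cdh5) and 4 had 1 (Pecam1, Kdr, Tek and Madcam1). They were read on the 34 mouse spleen arrays among the 98 arrays of the study, whose other 64 arrays hold blood leukocytes.

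The study measured total RNA from mice on 1-colour Affymetrix arrays in 3 models of systemic injury: burn, infusion of LPS (lipopolysaccharide from the bacterial outer membrane) and trauma-hemorrhage. Array titles carry a code, x or c, which the labels do not explain, and every spleen title also carries the letter E, which the blood labels give to injured or infused animals. If the letter means the same in spleen, all spleen arrays came from injured or infused mice. With the code unexplained, x against c cannot be read as a contrast of injured with uninjured animals. There were 6 x and 5 c arrays of burn spleen, described as leukocytes from that organ, 6 x and 6 c arrays of LPS spleen, and 5 x and 6 c arrays of trauma-hemorrhage spleen, the last 2 sets described simply as spleen. The labels used here state no strain, genotype, age or time after injury, and they do not say whether each array of a group was a different mouse, so a p-value here covers the spread among these arrays alone, part of which may be technical. In burn and in trauma-hemorrhage spleen the x and the c arrays each carry 1 run of consecutive title numbers, so that the order of handling and the code cannot be told apart there. In LPS spleen the codes alternate over 2 runs.

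Spleen stroma consists of fibroblastic reticular cells, which lay down a collagen scaffold and guide lymphocytes through the white pulp, and of contractile cells of the capsule and trabeculae. Vessel endothelium is held together by VE-cadherin, the product of Cdh5, and by Pecam1, and responds to growth signals through the receptor tyrosine kinases Kdr (VEGF receptor) and Tek (angiopoietin receptor). Madcam1, an addressin that binds a lymphocyte integrin, marks the lining of the marginal sinus in mouse spleen. Bulk tissue arrays read the sum over all cells of a sample, so fewer cells of a type and less RNA per cell cannot be told apart.

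The deposited values were linear intensities with 1 lowest value, or floor, per set: 9.68 in burn, 25.9 in LPS and 11.1 in trauma-hemorrhage spleen. At this floor lay between 4.02% and 5.72% of the probe sets of a spleen array. The sets appear to have been scaled separately, so intensities are set side by side only between x and c arrays of 1 set. Across sets only x minus c and ranks within an array are given, and a rank also depends on how bright a probe set is by its own sequence. Differences are x minus c in log2(intensity + 16) with their standard errors (SE), which understate the changes of dim probe sets, and a difference was called where limma's p, Benjamini-Hochberg adjusted over the 15838 probe sets tested in a set, was under 0.05. Probe sets below the 30th percentile of a set's mean were left out of its test. RNA integrity was read from the array's beta-actin control, as its 3' signal over its 5' signal. On the log2 scale this beta-actin ratio lay between 1.40 and 1.89 in x and between 1.59 and 2.25 in c arrays of burn spleen, between 1.86 and 2.19 in x and between 1.87 and 2.24 in c arrays of LPS spleen, and between 1.61 and 2.35 in x and between 1.59 and 2.12 in c arrays of trauma-hemorrhage spleen.

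The label of these genes was checked by ranking each probe set among all probe sets of an array, in spleen and in blood. Col3a1 probe set 1427883_a_at, for the alpha chain of type III collagen, fitted a spleen stroma marker: its median percentile was 43.7, 43.0 and 45.3 in burn, LPS and trauma-hemorrhage spleen, against 16.7, 3.32 and 3.47 in the blood of the same models, where it stood at the floor on 19 of 22 LPS and 17 of 22 trauma-hemorrhage arrays. Sparc probe set 1448392_at also had higher medians in spleen (28.3, 48.4 and 15.9) than in blood (17.5, 19.4 and 3.53). Its array ranges overlapped in every model, as in burn with 2.61 to 58.9 in spleen and 10.2 to 39.6 in blood. The second Col3a1 probe set, 1427884_at, went the other way in the LPS and trauma-hemorrhage models. It had median percentiles of 4.21, 7.15 and 2.53 in spleen, against 3.1, 13 and 16.2 in blood.

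Several other members went against the label, since they ranked as high or higher in blood leukocytes in most models. Kdr had median percentiles of 44.3, 79.9 and 43.8 in spleen, against 78.4, 74.6 and 78.1 in blood. Acta2 probe set 1416454_s_at had 50.7, 93.1 and 80.6 in spleen, against 86.5, 89.3 and 88.9 in blood. Col1a2 probe set 1450857_a_at had 51.6, 63.6 and 53.4 in spleen, against 74.8, 75.7 and 78.0 in blood. The exceptions were Kdr and Acta2 in the LPS model, which ranked slightly higher in spleen. Cdh5 and Col1a1 were mixed. Cdh5 1433956_at had 37.8, 40.2 and 40.6 in spleen, against 33, 48.3 and 55.7 in blood. Cdh5 1422047_at had 32.7, 6.38 and 40.3 in spleen, against 31.8, 38.8 and 36.6 in blood. Col1a1 1423669_at had 61.7, 2.7 and 63.2 in spleen, against 63.2, 14.9 and 12.4 in blood. Col1a1 1455494_at had 27.5, 22.8 and 57.5 in spleen, against 23.7, 25.8 and 18 in blood. The second probe sets of Col1a2 and Acta2 were mixed too. Col1a2 1423110_at had 34, 22.2 and 32.6 in spleen, against 20.1, 36.8 and 36 in blood. Acta2 1456658_at had 6.23, 27.5 and 5.92 in spleen, against 22.2, 25.3 and 12 in blood.

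Pecam1 (23.3, 45.4 and 20.3 in spleen, against 57.9, 27.7 and 59.5 in blood) and Tek (33.9, 3.78 and 10 in spleen, against 56.1, 8.02 and 8.93 in blood) ranked below the filter's percentile in trauma-hemorrhage spleen. Madcam1 had 16.1, 38.4 and 16.5 in spleen, against 15.6, 57.5 and 55.9 in blood. In most models Pecam1, Tek and Madcam1 thus ranked higher in blood, which went against the label. Pecam1 and Madcam1 fell below the filter in burn and trauma-hemorrhage spleen and passed it in LPS spleen, while Tek passed it in burn spleen alone. Sparc probe set 1416589_at ranked in the upper part of spleen arrays (63.2, 77.6 and 62.6) and of blood arrays (68.1, 53.9 and 95.4) alike, with its highest rank in trauma-hemorrhage blood.

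**Figure D1:**
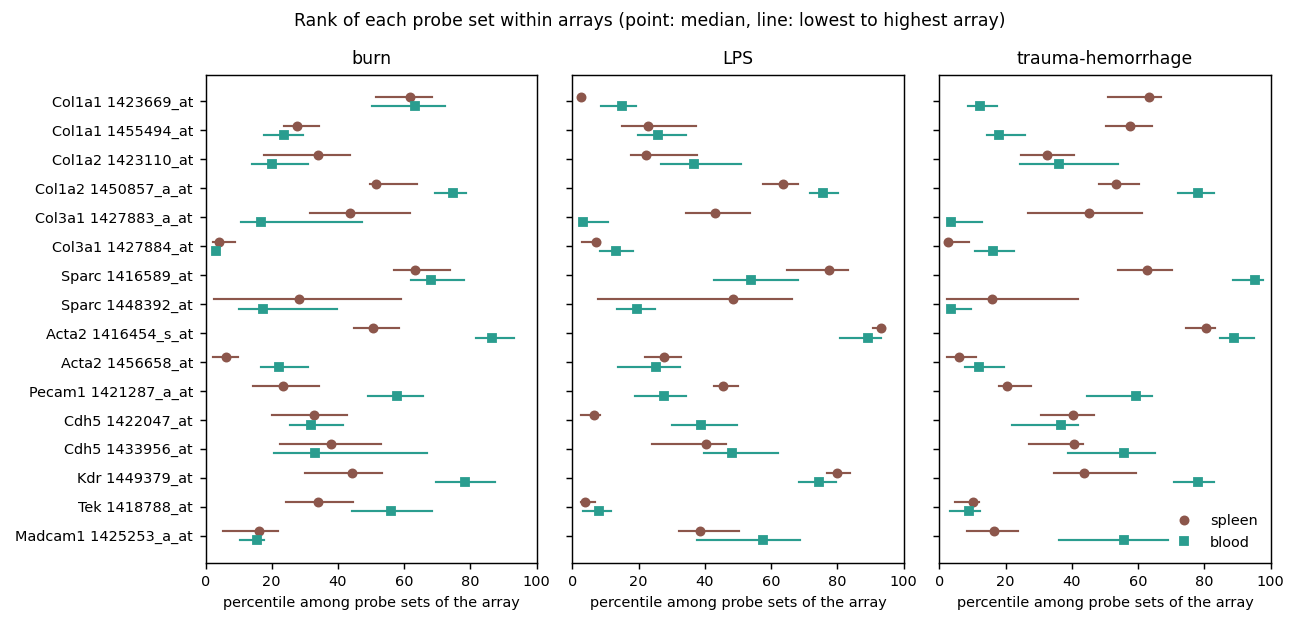
Percentile of each of the 16 probe sets among all probe sets of an array (horizontal axis, 0 to 100), by set. Brown circles are medians over spleen arrays and green squares medians over blood arrays, and lines run from the lowest to the highest array. Col3a1 1427883_a_at is higher in spleen in every model, while Kdr, Acta2 1416454_s_at and Col1a2 1450857_a_at are as high or higher in blood in most.

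Promoter windows are shown for the genes called in at least 1 set in a test that kept its call in every leave-one-out fit (Col3a1, Sparc and Kdr), because Sparc and Kdr were called in opposite directions in 2 sets while Col3a1 was called in 1. The windows, 250 bases before to 50 after the gene start, are from RefSeq on GRCm38.p6, whose table held 7 of the 10 genes. They are written 5′ to 3′ along the gene's strand, and capitals mark motifs found on either strand.
Col3a1 (GRCm38.p6 chr1:45311288-45311587, plus strand): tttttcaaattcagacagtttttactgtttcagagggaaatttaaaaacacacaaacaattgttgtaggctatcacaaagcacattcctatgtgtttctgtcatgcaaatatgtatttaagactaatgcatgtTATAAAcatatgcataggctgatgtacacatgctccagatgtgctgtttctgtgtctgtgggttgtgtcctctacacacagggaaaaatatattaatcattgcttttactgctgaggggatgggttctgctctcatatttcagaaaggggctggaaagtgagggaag
Sparc (GRCm38.p6 chr11:55420031-55420330, minus strand): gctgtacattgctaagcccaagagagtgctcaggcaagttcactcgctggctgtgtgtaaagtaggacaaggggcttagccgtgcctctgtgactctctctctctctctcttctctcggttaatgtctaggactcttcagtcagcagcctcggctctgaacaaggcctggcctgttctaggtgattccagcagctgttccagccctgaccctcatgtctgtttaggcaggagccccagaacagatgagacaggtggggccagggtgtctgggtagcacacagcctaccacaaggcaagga
Kdr (GRCm38.p6 chr5:75978406-75978705, minus strand): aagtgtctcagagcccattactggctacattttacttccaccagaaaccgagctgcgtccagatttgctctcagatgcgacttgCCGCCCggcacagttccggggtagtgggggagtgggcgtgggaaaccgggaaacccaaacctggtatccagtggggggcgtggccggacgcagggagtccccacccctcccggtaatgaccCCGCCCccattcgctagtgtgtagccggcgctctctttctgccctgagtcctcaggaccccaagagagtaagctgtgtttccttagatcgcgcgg
The motifs searched were the GC box (GGGCGG), the TATA box (TATAAA) and the CCAAT box (CCAAT), on both strands and with no overlap among the matches. The Kdr window held 2 GC boxes, a motif that 35.7% of all 32851 promoter windows hold at least once. The Col3a1 window held 1 TATA box, found in 13.6% of all windows, and the Sparc window held 0 of the 3 motifs. The CCAAT box, found in 37.4% of windows, was in none of these. The share of G and C was 60.7% for Kdr, 55.3% for Sparc and 37.7% for Col3a1, against a median of 52.7% over all windows.

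The first comparison asked which of these genes differed between x and c arrays in burn spleen. Col3a1, Sparc, the VEGF receptor Kdr and the endothelial cadherin Cdh5 fell in x, and no member rose. Of the 16 member probe sets, 11 (8 genes) reached the test, 5 of them (4 genes) were lower in x, 0 were higher and 6 were not called. Over all tested probe sets, 8.02% were lower and 9.90% were higher. The median difference was -0.30 over the 11 members tested and -0.010 over all tested probe sets, and 10 of the 11 were below 0. Of the 5, Sparc 1448392_at passed the filter only through the c arrays, as did the uncalled Col1a2 1423110_at, so this count leans towards members that are lower in x. With no filter, 4 of all 16 members were called lower, against 5.22% of all 22626 probe sets.

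Among the fibrillar collagens in burn spleen, Col3a1 1427883_a_at had intensities of 41.6, 54.9 and 66.0 (lowest, median and highest of 6) in x arrays, against 66.9, 78.4, 79.5, 84.2 and 118.6 in c arrays. Every x array lay below every c array. The difference was -0.48 ± 0.11 (adjusted p = 0.00710, limma), and means were 54.6 ± 7.92 in x and 85.5 ± 19.6 in c (SD, n = 6 and 5).

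The other collagen probe sets of burn spleen were not called with every array in the fit. Without c replicate 4, both Col1a2 probe sets were called lower (adjusted p = 0.0488 for 1423110_at and adjusted p = 0.0349 for 1450857_a_at). Col1a2, the second chain of type I collagen, had -0.30 ± 0.12 (adjusted p = 0.0976) with 1423110_at and -0.22 ± 0.09 (adjusted p = 0.110) with 1450857_a_at, for which 4 of 6 x arrays (78.7 to 86.7 over the group) lay below all c arrays (81.3 to 128.7). Col1a1, the first chain, had -0.11 ± 0.11 with 1423669_at (101.4 to 139.4 in x against 85.2 to 150 in c), and the groups overlapped. Col1a1 1455494_at (31.8 to 47.7 in x against 32.7 to 50.8 in c) and Col3a1 1427884_at (9.68 to 14.995 in x against 9.68 to 11.5 in c) were too dim for the test, the last with 5 of 11 arrays at the floor.

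Sparc encodes a secreted glycoprotein that binds collagen and shapes matrix assembly. In burn spleen its probe set 1416589_at had 100.5, 109.6 and 127.0 (lowest, median and highest) in x arrays, against 130.1, 149.6, 153.3, 154.3 and 185.9 in c arrays. The groups did not overlap, and the difference was -0.41 ± 0.09 (adjusted p = 0.00349). Its second probe set, 1448392_at, had 9.68, 13.7, 28.4, 31.6, 33.9 and 39.1 in x arrays, against 46.6, 66.2, 67.1, 95.2 and 109.8 in c arrays. Again no x array reached the c arrays. The difference of -1.13 ± 0.20 (adjusted p = 0.00103) was the largest among the members, and 1 x array, replicate 2, stood at the floor. Without that array the difference was -0.99. This probe set reached the test only through the c arrays, and with no filter its adjusted p was 0.0105 (limma). Platelets also carry Sparc, and of 7 platelet and megakaryocyte genes 0 were called in burn spleen, with summed intensities of 893.4 to 1108.8 in x and 871.6 to 1392.2 in c arrays. Their part in the drop of Sparc was not tested.

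Acta2, the smooth muscle actin of vessel walls and contractile fibroblasts, did not follow. Its probe set 1416454_s_at had 64.7, 84.97 and 108.6 (lowest, median and highest) in x arrays, against 72.2, 80.4, 83.3, 84.2 and 106.8 in c arrays of burn spleen. The groups lay on top of each other, and the difference was 0.031 ± 0.10. Acta2 1456658_at lay at or near the floor (9.68 to 16.04 in x and 9.68 to 15.9 in c) and was not tested.

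Of the endothelial genes in burn spleen, Kdr had 41.3, 51.6 and 68.1 (lowest, median and highest) in x arrays, against 66.7, 74.1, 75.6, 82.7 and 92.6 in c arrays. In 5 of 6 x arrays it lay below all c arrays, and the difference was -0.42 ± 0.10 (adjusted p = 0.00697). Cdh5 1433956_at had 29.6, 46.3 and 55.3 in x arrays, against 53.3, 57.4, 60.2, 64.7 and 91.9 in c arrays, with 5 of 6 x arrays below all c arrays. Its difference was -0.40 ± 0.12 (adjusted p = 0.0352). This call was lost with no filter (adjusted p = 0.0814), with the beta-actin ratio as a covariate (adjusted p = 0.0616) and in 6 of 11 fits that each left out 1 array.

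The second Cdh5 probe set, 1422047_at, had -0.12 ± 0.12 in burn spleen (28.9 to 59.0 in x against 38.7 to 65.4 in c) and was not called. Tek had -0.020 ± 0.14, with 34.8 to 62.9 in x and 34.7 to 69.3 in c arrays. Pecam1 (31.3 to 45.6 in x against 23.3 to 38.1 in c) and Madcam1 (21.1 to 29.7 in x against 11.7 to 24.0 in c) were below the filter, and with no filter they had 0.18 ± 0.10 and 0.26 ± 0.11, neither called (adjusted p = 0.312 and adjusted p = 0.155). Calls among the genes named here as endothelial were thus limited to Kdr and Cdh5 1433956_at. By rank, Kdr, Pecam1 and Tek stood higher in burn blood than in burn spleen. Whether their signal in burn spleen came from endothelium was not tested.

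**Figure D2:**
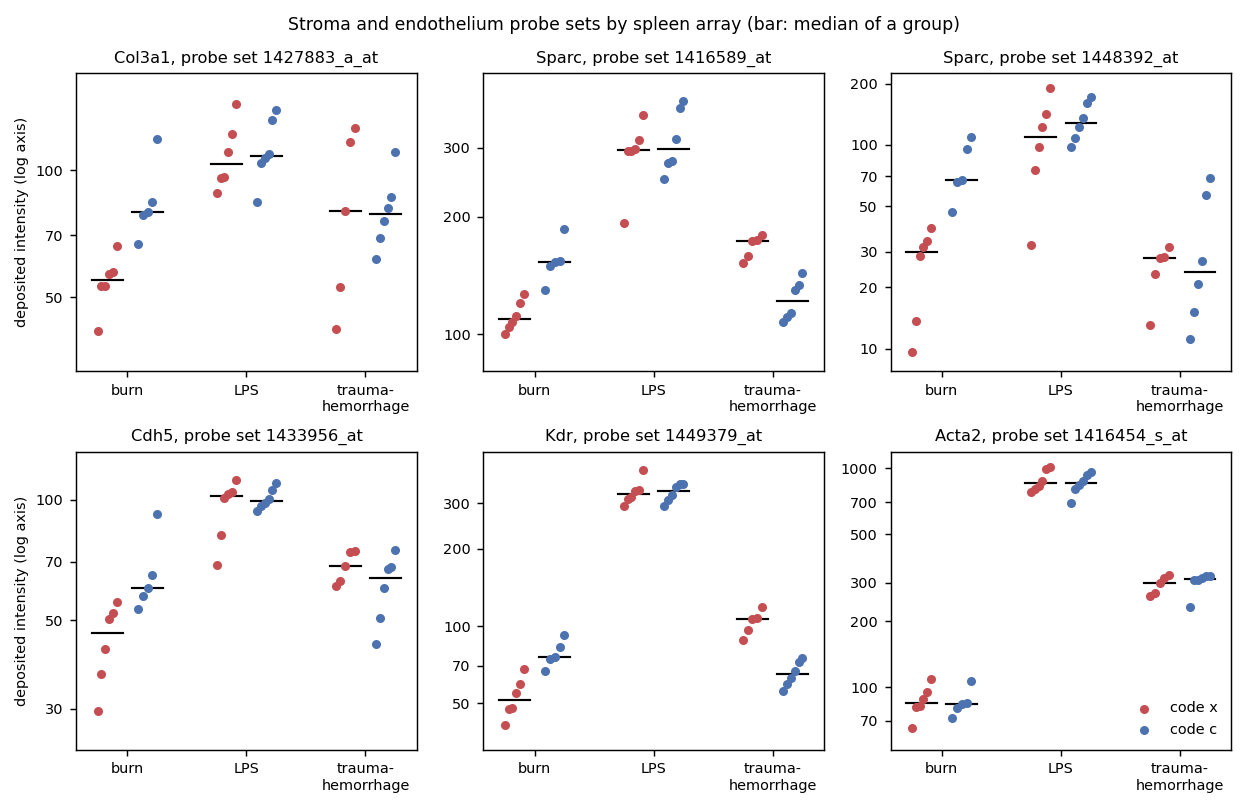
Deposited intensity (vertical log axis) of 6 probe sets by spleen array, with x arrays in red to the left of c arrays in blue and a bar at each group's median. In burn spleen all x arrays of Col3a1 and of both Sparc probe sets lie below the c arrays, in trauma-hemorrhage spleen all x arrays of Kdr and Sparc 1416589_at lie above them, and in LPS spleen the groups overlap in every panel.

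In LPS spleen 0 of the 9 member probe sets tested (8 genes) were called, and 0 had an unadjusted p under 0.05 in limma. All settings tried, including the block for title-number runs, also called 0. Over all tested probe sets, 2.58% were higher and 0.852% lower in x. The median difference was -0.071 over the members and -0.016 over all tested probe sets, and the lowest adjusted p was 0.681, for Col1a2.

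Kdr had 292.5, 327.7 and 404.9 (lowest, median and highest) in x arrays of LPS spleen, against 293.6, 335.7 and 357.8 in c arrays, a difference of -0.0020 ± 0.084. Col3a1 1427883_a_at had 88.4, 103.2 and 143.9 in x arrays, against 84.2, 108.3 and 139.2 in c arrays, a difference of -0.035 ± 0.11. In both genes the groups overlapped, with 1 x array above all c arrays in each. Sparc 1416589_at had 193.3, 296.6 and 363.6 in x arrays, against 250.1, 297.6 and 394.9 in c arrays, a difference of -0.11 ± 0.13.

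Sparc 1448392_at had 32.4 to 190.4 in x arrays against 97.2 to 171.8 in c arrays of LPS spleen, and its SE of 0.26 around a difference of -0.34 was the widest of the members there. Acta2 1416454_s_at (0.023 ± 0.093), Pecam1 (-0.029 ± 0.056), Cdh5 1433956_at (-0.076 ± 0.094), Madcam1 (-0.071 ± 0.084) and Col1a2 1450857_a_at (-0.11 ± 0.068) lay closer to 0. Pecam1 had 102.9, 114.7 and 122.5 in x arrays, against 105.7, 115.5 and 137.0 in c arrays. Madcam1 had 82.5, 93.2 and 115.0 in x arrays, against 88.4, 95.7 and 138.3 in c arrays, and the groups overlapped in both genes.

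Col1a1 1423669_at was at the floor on all 12 LPS spleen arrays, and Tek on 3 x and 3 c arrays, so neither can be compared there. Col1a1 1455494_at (46.0 to 71.5 in x against 56.8 to 93.7 in c), Col1a2 1423110_at (50.9 to 71.0 in x against 51.8 to 103.6 in c) and Cdh5 1422047_at (27.5 to 33.2 in x against 25.9 to 32.4 in c) were below the filter. So were Acta2 1456658_at (58.7 to 86.7 in x against 72.2 to 79.1 in c) and Col3a1 1427884_at (25.9 to 33.8 in x against 26.9 to 33.6 in c).

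In trauma-hemorrhage spleen Kdr and Sparc rose in x, and no member fell. Of the 16 member probe sets 10 (7 genes) were tested, 2 were higher, 0 lower and 8 not called. Over all tested probe sets, 10.9% were higher and 16.5% lower. The median difference was 0.074 over the members and -0.0058 over all tested probe sets. With no filter, the count was also 2 of all 16 members, against 7.99% of all probe sets higher.

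Kdr had 88.4, 96.5, 106.9, 107.5 and 118.6 in x arrays of trauma-hemorrhage spleen, against 56.1, 65.1 and 75.0 (lowest, median and highest of 6) in c arrays. All 5 x arrays lay above all c arrays, and the difference was 0.56 ± 0.10 (adjusted p = 4.38e-04), with means of 103.6 ± 11.5 in x and 65.5 ± 7.34 in c (SD, n = 5 and 6).

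Sparc 1416589_at had 151.8, 158.4, 173.5, 174.5 and 179.1 in x arrays of trauma-hemorrhage spleen, against 107.3, 121.5 and 143.7 (lowest, median and highest) in c arrays. All 5 x arrays again lay above all c arrays, and the difference was 0.42 ± 0.08 (adjusted p = 0.00152). The second Sparc probe set did not show this: 1448392_at had 13.1, 23.2, 28.0, 28.2 and 31.7 in x arrays, against 11.1, 23.9 and 68.5 in c arrays, where it was below the filter. With no filter its difference was -0.16 ± 0.30 and was not called. Of 7 platelet and megakaryocyte genes 0 were higher and 1, the platelet receptor Clec1b, was lower by -0.52 ± 0.14 (adjusted p = 0.0143), with summed intensities of 931.5 to 1259.4 in x and 956.6 to 1257.5 in c arrays. Their part in the rise of Sparc was not tested.

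The type I collagen probe sets of trauma-hemorrhage spleen pointed in opposite directions within a gene, and none was called with every array in the fit. Col1a1 had 0.21 ± 0.11 with 1423669_at (130.8 to 163.4 in x against 91.4 to 159.6 in c) and -0.16 ± 0.10 with 1455494_at (92.4 to 124.9 in x against 104.7 to 153.5 in c). Col1a2 had 0.21 ± 0.10 with 1423110_at (45.1 to 67.0 in x against 38.8 to 58.4 in c), which was called higher without x replicate 4 (adjusted p = 0.0424), and -0.17 ± 0.09 with 1450857_a_at (86.6 to 101.6 in x against 88.8 to 125.2 in c). For these genes the direction therefore depends on the probe set read.

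Among the members tested in trauma-hemorrhage spleen, Col3a1 1427883_a_at had the widest SE, with 42.1, 52.9, 79.9, 116.9 and 125.7 in x arrays, against 61.7, 78.5 and 110.5 (lowest, median and highest) in c arrays. The x arrays lay on both sides of the c arrays, and the difference of -0.014 ± 0.21 turned to 0.0079 with a pseudocount of 64 and to 0.18 with the beta-actin ratio as a covariate. Acta2 1416454_s_at (260.2 to 325.9 in x against 231.6 to 321.6 in c) had 0.0070 ± 0.11, or -0.027 in the intensities as deposited, and was not called. Cdh5 had -0.077 ± 0.11 with 1422047_at and 0.14 ± 0.11 with 1433956_at, whose values were 61.0 to 74.3 in x and 43.6 to 75.1 in c arrays.

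The remaining members were too dim for the test in trauma-hemorrhage spleen. Tek had 17.5 to 21.4 in x and 11.4 to 21.5 in c arrays, Pecam1 31.3 to 36.7 in x and 28.6 to 43.7 in c, and Madcam1 25.6 to 38.9 in x and 16.6 to 32.5 in c. Col3a1 1427884_at (11.1 to 11.7 in x against 11.1 to 17.8 in c) and Acta2 1456658_at (11.1 to 19.0 in x against 11.1 to 20.5 in c) had 6 and 3 of 11 arrays at the floor.

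**Figure D3:**
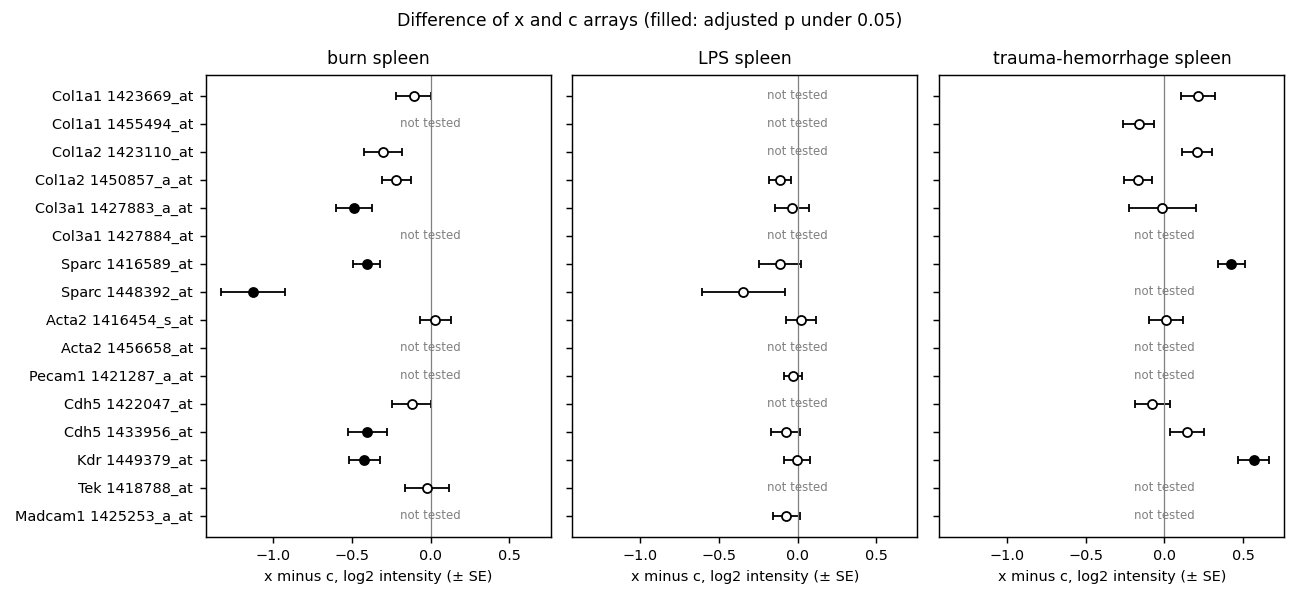
Difference x minus c in log2 intensity (horizontal axis) with its SE for each of the 16 probe sets in burn, LPS and trauma-hemorrhage spleen. Filled points have an adjusted p under 0.05, open points do not, and dim probe sets are marked as not tested. The 5 filled points of burn spleen lie below 0, the 2 of trauma-hemorrhage spleen above 0, and LPS spleen has none.

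Whether x minus c differed between the sets was tested for the 6 member probe sets that passed the filter in all 3, among 13287 probe sets. Kdr differed in every pair of sets. Its x minus c was higher in trauma-hemorrhage than in burn spleen by 0.99 ± 0.13 (adjusted p = 4.12e-07), higher in trauma-hemorrhage than in LPS spleen by 0.57 ± 0.13 (adjusted p = 0.00177) and higher in LPS than in burn spleen by 0.42 ± 0.13 (adjusted p = 0.0321). The last of these was not called with a pseudocount of 64 (0.26, adjusted p = 0.0767).

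Sparc 1416589_at differed by 0.83 ± 0.16 (adjusted p = 1.25e-04) between trauma-hemorrhage and burn spleen and by 0.53 ± 0.16 (adjusted p = 0.0146) between trauma-hemorrhage and LPS spleen. Between LPS and burn spleen it had 0.29 ± 0.16 and was not called (adjusted p = 0.266). Cdh5 1433956_at differed by 0.54 ± 0.16 (adjusted p = 0.0124) between trauma-hemorrhage and burn spleen and was not called between the other pairs.

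Col3a1 1427883_a_at had 0.45 ± 0.23 between LPS and burn spleen (adjusted p = 0.239) and 0.47 ± 0.23 between trauma-hemorrhage and burn spleen (adjusted p = 0.136), so that its drop, called in burn spleen alone, was not shown to differ from the other sets. Col1a2 1450857_a_at and Acta2 1416454_s_at had differences between -0.056 and 0.10 and were not called. In all, 3 of 6 members were called between trauma-hemorrhage and burn spleen (27.1% of all tested probe sets), 2 of 6 between trauma-hemorrhage and LPS spleen (15.8%) and 1 of 6 between LPS and burn spleen (9.87%). The 3 pairs share arrays.

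Other genes of stroma and vessels, in lists by function and with 1 probe set per gene, were mostly not called. Their counts stand beside the shares over all tested probe sets. These were 9.90% higher and 8.02% lower in burn spleen and 2.58% higher and 0.852% lower in LPS spleen. In trauma-hemorrhage spleen they were 10.9% higher and 16.5% lower. Among 29 other matrix and fibroblast genes tested in burn spleen, 1 was higher and 1 lower. Thbs1, a matrix glycoprotein also stored in platelets, rose in all 3 sets, by 0.93 ± 0.12 in burn (adjusted p = 3.48e-05), 0.52 ± 0.10 in LPS (adjusted p = 0.00627) and 1.77 ± 0.18 in trauma-hemorrhage spleen (adjusted p = 3.49e-06). The small proteoglycan Bgn fell in burn spleen (-0.50 ± 0.10).

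In LPS spleen 2 of 30 matrix genes were higher and 1 was lower, Fn1 (fibronectin) at -0.71 ± 0.14. In trauma-hemorrhage spleen 5 of 30 were higher and 2 lower, among them Timp2, an inhibitor of matrix proteases, at -1.17 ± 0.26. The list medians were 0.0029 in burn, -0.020 in LPS and 0.080 in trauma-hemorrhage spleen. Of the smooth muscle and pericyte genes, 0 of 8 in burn, 0 of 11 in LPS and 1 of 7 in trauma-hemorrhage spleen were called, the last being the tropomyosin Tpm2 (0.24 ± 0.08).

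Of 21 other endothelial genes tested in burn spleen, 6 were lower and 1 was higher, with a median of -0.11. The largest drops were in Stab2, a scavenger receptor of sinus endothelium, at -0.98 ± 0.15 (adjusted p = 2.56e-04; means 55.3 in x and 130.7 in c), and in the adhesion molecule Vcam1 at -0.87 ± 0.15 (adjusted p = 7.11e-04; means 659.8 in x and 1195.9 in c). Both also fell in trauma-hemorrhage spleen, Stab2 by -0.91 ± 0.16 (adjusted p = 5.54e-04) and Vcam1 by -0.93 ± 0.30 (adjusted p = 0.0294), where 2 of 21 genes were higher and 4 lower (median -0.044). In LPS spleen 1 of 27 was called (median -0.048), the adhesion molecule Icam1, which rose by 0.96 ± 0.11 (adjusted p = 2.87e-05; means 985.5 in x and 485.2 in c). Its values in the other sets, added after they were seen, were -0.43 ± 0.11 in burn (adjusted p = 0.0151) and 0.78 ± 0.07 in trauma-hemorrhage spleen (adjusted p = 1.93e-06). Vcam1 also stands on the list of red pulp macrophage genes.

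Of the lymphoid stroma and spleen identity genes, 2 of 12 were lower in burn spleen: Cr2, a complement receptor of B cells and follicular dendritic cells, at -0.78 ± 0.06 (adjusted p = 3.52e-07), and Cxcl12, a chemokine of reticular cells, at -0.30 ± 0.09 (adjusted p = 0.0328). In LPS spleen 0 of 11 were called. In trauma-hemorrhage spleen 1 of 11 was higher, the ectoenzyme Bst1 at 0.75 ± 0.18 (adjusted p = 0.00648), and 1 lower, Cr2 at -1.40 ± 0.14 (adjusted p = 2.58e-06). These lists were chosen with results of these data known, and their counts are descriptions.

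**Figure D4:**
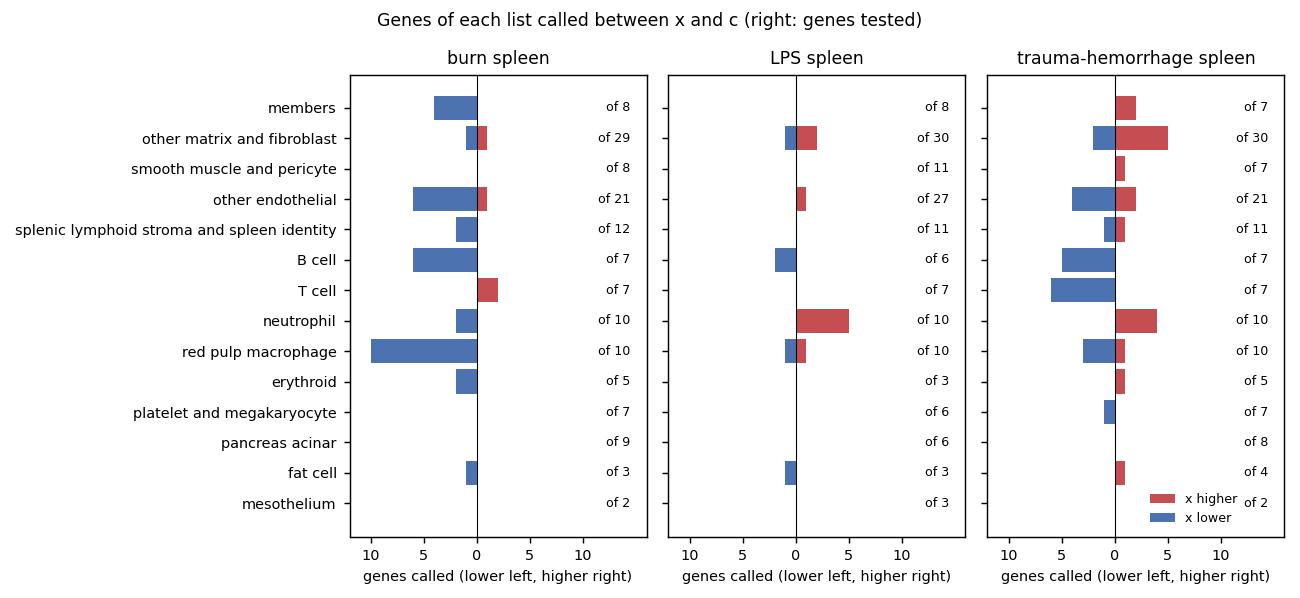
Number of genes called higher in x (right, red) or lower in x (left, blue) for each list and set, with the number tested at the right edge, where members stands for the 10 genes described here. In burn spleen the 10 red pulp macrophage genes are all lower in x, and in trauma-hemorrhage spleen 6 T cell and 5 B cell genes are lower.

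Some markers of other spleen cells moved with the code too, while others were not called. For these counts as well, the shares over all tested probe sets were 9.90% higher and 8.02% lower in burn spleen. They were 2.58% higher and 0.852% lower in LPS spleen, and 10.9% higher and 16.5% lower in trauma-hemorrhage spleen. In burn spleen all 10 red pulp macrophage genes tested were lower in x, and their summed intensity was 2638.5 to 3599.3 in x against 4534.8 to 7699.5 in c arrays. Of 7 B cell genes 6 were lower (10164 to 11544 in x against 13391 to 15473 in c), of 7 T cell genes 2 were higher (3170.9 to 4058.8 in x against 1805.0 to 3001.7 in c), of 5 erythroid genes 2 were lower (454.7 to 526.7 in x against 678.5 to 940.5 in c) and of 10 neutrophil genes 2 were lower (7656.9 to 13616 in x against 7594.7 to 14282 in c). The sum over the 10 stroma and endothelium genes was 571.6 to 735.7 in x against 664.3 to 896.3 in c. The part of these cells in the drop of Col3a1, Sparc, Kdr and Cdh5 was not tested.

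In trauma-hemorrhage spleen 4 of 10 neutrophil genes were higher (12781 to 18690 in x against 6715.2 to 13408 in c), 6 of 7 T cell genes were lower (1992.7 to 2627.5 in x against 2926.6 to 3838.4 in c), 5 of 7 B cell genes were lower (9405.3 to 12461 in x against 14591 to 17770 in c), and of 10 red pulp macrophage genes 3 were lower and 1 higher (1786.0 to 3954.2 in x against 4038.4 to 5953.4 in c). The sum over the 10 stroma and endothelium genes was 976.8 to 1117.1 in x against 874.5 to 1019.1 in c. Since Kdr and Sparc 1416589_at also gave signal in blood leukocytes, the part of blood cells in their rise was not tested.

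In LPS spleen 5 of 10 neutrophil genes were higher (18625 to 27060 in x against 9166.5 to 20301 in c), 2 of 6 B cell genes were lower, and of 10 red pulp macrophage genes 1 was higher and 1 lower. The sum over the 10 stroma and endothelium genes was 2063.4 to 2399.4 in x against 2004.8 to 2377.7 in c. Markers of tissue next to the spleen gave few calls: 0 pancreas acinar and 0 mesothelium genes were called in any set. Of the fat cell genes, Lpl, which macrophages also express, was lower in burn (-0.87 ± 0.16) and LPS spleen (-0.74 ± 0.12), and Fabp4 was higher in trauma-hemorrhage spleen (0.94 ± 0.24).

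Whether member genes varied together from array to array was examined in 8 pairs, over the 34 spleen arrays and as deviations from the group means, with permutation within groups. No pair passed after adjustment over the 8 pairs. Col3a1 with Acta2 had r = 0.36 (permutation p = 0.0617, adjusted p = 0.247) and rho = 0.29 (permutation p = 0.138). This r fell to 0.20 without the 2 arrays farthest from the median of Col3a1. Within sets it was -0.24 in burn, 0.55 in LPS and 0.58 in trauma-hemorrhage spleen.

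Col3a1 with Sparc had r = -0.29 (permutation p = 0.0588, adjusted p = 0.247) and rho = -0.33 (permutation p = 0.0668), with -0.20, -0.60 and -0.17 within the sets and -0.43 without those 2 arrays. The 2 endothelial genes Cdh5 and Kdr had r = 0.22 (permutation p = 0.276) and rho = 0.14 (permutation p = 0.472). Within the sets r was 0.20, -0.0048 and 0.46. It was 0.12 without the 2 arrays farthest from the median of Cdh5. For the chains of type I collagen, only Col1a1 1423669_at and Col1a2 1450857_a_at were paired. Their r was 0.45 in burn and -0.62 in trauma-hemorrhage spleen. Over all 34 arrays r was -0.042 (permutation, adjusted p = 0.941). LPS spleen cannot inform that value, because Col1a1 1423669_at stood at the floor on all 12 LPS arrays. The other 4 pairs, of which Col1a1 with Col3a1 has no LPS values for the same reason, had r between -0.22 and 0.11 and adjusted p between 0.624 and 0.941.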

How the data were processed

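Total RNA from mouse spleen (34 arrays) and blood leukocytes (64 arrays) was measured on 1-colour Affymetrix arrays. The deposited values were linear intensities, 1 per probe set and array. The sources used here do not give how the authors computed and scaled them. Precision is limited by how many arrays there were. The 64 manufacturer control probe sets were left out, which kept 22626 of 22690 probe sets. The platform's gene table gave 1 symbol to 20380 of these, several to 691 and none to 1555, and every member probe set had 1.

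Each spleen set was quantile normalized, taken as log2(value + 16), cut at the 30th percentile of its mean and fitted alone with limma 3.58.1 in R 4.3.3 (lmFit, eBayes with a trend), with x against c, Benjamini-Hochberg adjustment over all probe sets tested and two-sided tests at an adjusted p of 0.05. Differences between sets were contrasts in 1 fit of all spleen arrays. All probe sets of the 10 genes are given, and of each other list the counts and up to 2 genes with the largest called difference, by the probe set with the highest mean, and Vcam1 stands on 2 lists. Lists not given gene by gene cover B cells, T cells, neutrophils, red pulp macrophages, erythroid cells, platelets, pancreas, fat and mesothelium. The members and lists were chosen with earlier results of these data known. Alternatives were the intensities as deposited, normalization over all spleen arrays, pseudocounts of 1 and 64, no filter, a filter at the 50th percentile, 1 probe set per gene, all arrays in 1 fit, array weights, the beta-actin ratio as a covariate, the title-number runs as a block (LPS) and leaving out each array. The fits were also run on simulated data, and no statement here rests on the outcome.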

Additional observations from a re-analysis of the deposited data

Results flagged for a closer look

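Single arrays stood apart from the rest of their group in 5 of the 94 groups of member values examined (5.32%), by the gap of the extreme array relative to the group's range. Chance flags about 1 group in 20. Sparc 1416589_at was 193.3 on LPS spleen x replicate 4, against 294.9 to 363.6 on the other 5 x arrays. Col1a2 1423110_at was 103.6 on LPS spleen c replicate 6, against 51.8 to 66.6 on the others. Acta2 1416454_s_at was 231.6 on trauma-hemorrhage spleen c replicate 4, against 307.6 to 321.6 on the others. The other two lay at or near the floor: Tek on LPS spleen c replicate 4 (28.7, against 25.9 to 26.9) and Col3a1 1427884_at on trauma-hemorrhage spleen x replicate 4 (11.7, against 11.1 on the others).

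The difference x minus c was itself different between spleen sets for 3 genes, by limma contrasts at an adjusted p of 0.05. Kdr differed by 0.99 between trauma-hemorrhage and burn spleen, by 0.57 between trauma-hemorrhage and LPS spleen and by 0.42 between LPS and burn spleen. Sparc 1416589_at differed by 0.83 between trauma-hemorrhage and burn spleen and by 0.53 between trauma-hemorrhage and LPS spleen, and Cdh5 1433956_at by 0.54 between trauma-hemorrhage and burn spleen. The burn set is described as spleen leukocytes and the other 2 sets as spleen, and injury model and described material cannot be told apart in the contrasts with burn. In the contrasts with LPS spleen, the model cannot be told apart from the mark v2 and the separate title numbers of that set.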

How the results depend on the processing

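Of 342 values of single probe sets under other settings, 333 kept their direction and side of the threshold, as did 299 of 335 with 1 array left out. Fits in which a probe set dropped out of the test are not among these values. Counts of calls are given separately. Under the filter at the 50th percentile, which tested 4 members in burn and 5 in trauma-hemorrhage spleen, 1 member was called in each. The share over all probe sets under that filter is not given here. These counts are therefore set only beside the main ones, 5 in burn and 2 in trauma-hemorrhage spleen. Kdr did not pass that filter in either of these sets. With a pseudocount of 64, Kdr between LPS and burn spleen was 0.26 (adjusted p = 0.0767), which left 0 members called there. Cdh5 1433956_at in burn spleen lost its call with no filter (-0.40, adjusted p = 0.0814) and with the beta-actin ratio as a covariate (-0.32, adjusted p = 0.0616).

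Uncalled values changed sign in Tek in burn spleen (0.059) and Col3a1 in trauma-hemorrhage spleen (0.18) with the beta-actin covariate, in Col3a1 in trauma-hemorrhage spleen (0.0079) with a pseudocount of 64, and, in the intensities as deposited, in Kdr in LPS spleen (0.0061), Acta2 in trauma-hemorrhage spleen (-0.027), Acta2 between LPS and burn spleen (0.044) and the correlations of Col1a1 with Col1a2 (0.014, with Col1a1 at the floor in LPS spleen) and Col3a1 with Cdh5 (0.026). The cause was not tested.

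With 1 array left out, burn spleen gave 3 to 6 called members, with 3 without c replicate 1, 3 or 5, and 2146 to 3377 called probe sets in all against 2838 with every array. LPS spleen gave 0 members and 430 to 638 probe sets against 543, and trauma-hemorrhage spleen 2 to 3 members and 3775 to 4410 probe sets against 4338. Cdh5 1433956_at in burn spleen (-0.45 to -0.30) lost its call in 6 fits, without x replicate 1, 3 or 4 or c replicate 1, 3 or 5. Sparc 1448392_at, which passes the filter through the c arrays alone, was left out of the test in 4 of 11 such fits. Calls were gained for both Col1a2 probe sets in burn spleen without c replicate 4 and for Col1a2 1423110_at in trauma-hemorrhage spleen without x replicate 4. Uncalled values near 0 crossed it with 1 array left out. In burn spleen these were Acta2 1416454_s_at (-0.020 to 0.10) and Tek (-0.12 to 0.068). In LPS spleen they were Col3a1 1427883_a_at (-0.10 to 0.022), Sparc 1416589_at (-0.17 to 0.0011), Acta2 1416454_s_at (-0.041 to 0.070), Cdh5 1433956_at (-0.13 to 0.0085) and Kdr (-0.061 to 0.033). In trauma-hemorrhage spleen they were Col3a1 1427883_a_at (-0.18 to 0.16), Acta2 1416454_s_at (-0.067 to 0.062) and Cdh5 1422047_at (-0.15 to 0.0031). No paired analysis was possible because the array titles give no pairing of x with c arrays.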
